A study of Mus musculus with 28 samples.

Results

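Total interfollicular epidermis (IFE) of mouse tail skin, taken without selection for a lineage label, was compared between mice of the Slc1a3 line and mice of the Dlx1 line. The members are the 4 libraries that the labels give as total IFE of tail skin in these lines, replicates 1 and 2 of each, out of 28 libraries in the series. The Slc1a3 line has the genotype WT(Slc1a3CreER x RosatdTomato) and the Dlx1 line has the genotype WT(Dlx1CreER x RosatdTomato), so each joins a tamoxifen-inducible Cre recombinase (CreER) named after the gene to a RosatdTomato reporter. Both lines had 5 daily doses of tamoxifen from postnatal day 30 to 34. Their tails were collected at postnatal day 49, after a 2-week chase, in telogen, the resting phase of the follicles. All cells compared therefore carry the CreER and reporter alleles and had tamoxifen, and the lines differ by the CreER allele and by whatever else separates the mice. The series was designed to profile the Slc1a3, Dlx1 and Aspm basal lineages, and the total IFE is the population against which labelled cells are set. Tail total IFE of the Aspm line (2 libraries) and the sorted Slc1a3+ and Dlx1+ cells of the same lines (2 libraries each) are quoted where they place a value. The labels do not say whether libraries of a line came from separate mice. A p-value here therefore sets a difference against the spread between replicate libraries, which may be technical. That spread was estimated over all 28 libraries in 12 groups, back skin and sorted cells included, and not from these 4 alone.

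The epidermis renews from a basal layer that expresses keratins 5 and 14, passes through a spinous layer with keratins 1 and 10, and ends in a granular and cornified layer that forms the barrier. Tail skin carries rows of hairs with sebaceous glands between scales, and the scale epidermis makes hard keratins otherwise typical of hair and nail. Ribosomal protein genes and nuclear genes of oxidative phosphorylation are expressed in every cell, encode small proteins for the most part, and tend to vary together.

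The libraries held 15279655 and 27057385 counts in the Slc1a3 line and 27061137 and 29742937 in the Dlx1 line, against 7738262 to 37670589 over all 28. Levels are counts per 1000000 (CPM) of libraries scaled by TMM, which trims extreme genes before libraries are matched. They are not divided by gene length and are compared between libraries only. The basal keratins matched the labelled tissue: Krt14 was at 45170 and 42530 CPM in the Slc1a3 line, against 29100 and 24460 CPM in the Dlx1 line. The 4 libraries stood in a graded row and not in 2 clear groups. Across genes, log2 CPM correlated at r = 0.973 between the replicates of the Slc1a3 line and at 0.980 between those of the Dlx1 line, but also at 0.972 between Slc1a3 replicate 2 and Dlx1 replicate 1, and at 0.923 between Slc1a3 replicate 1 and Dlx1 replicate 2. These correlations are over genes of single libraries and carry no test. Measures of library content also differed between lines. Genes with a count after thinning every library to 15279655 counts numbered 18650 and 19016 in the Slc1a3 line, against 19882 and 21146 in the Dlx1 line, and long non-coding RNA took 0.59% and 0.531% of counts, against 0.743% and 0.949%. Their part in the results below was not tested.

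Of 17493 genes tested, 171 (0.978%) were higher and 164 (0.938%) were lower in the Slc1a3 line at an adjusted p under 0.05, and these are the genes said to pass. The p-values come from edgeR's quasi-likelihood test over all 28 libraries with Benjamini-Hochberg adjustment, as does every adjusted p given here. At an unadjusted p under 0.05 the number was 3108. The median log2 change of all genes tested was -0.07, and 7772 of them had a positive change. The libraries of the lines did not overlap in any of the 171 and 164 genes, nor in 9171 of all 17493. A lack of overlap given below therefore adds nothing to a passing call. Without Slc1a3 replicate 1 only 5 genes passed, without Dlx1 replicate 2 only 7, without Slc1a3 replicate 2 there were 249 and without Dlx1 replicate 1 there were 157. With both outer libraries left out, a choice made after the data were seen, edgeR passed 0 genes, and 740 were under 0.05 before adjustment. Rarres1, Wfdc17, Far2 and Mgll were the 4 genes that passed whichever single library of these was left out. With library totals in place of TMM, 68 were higher and 531 lower, and the median of all genes was then -0.25, so directions below are relative to the bulk of genes.

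**Figure D1:**
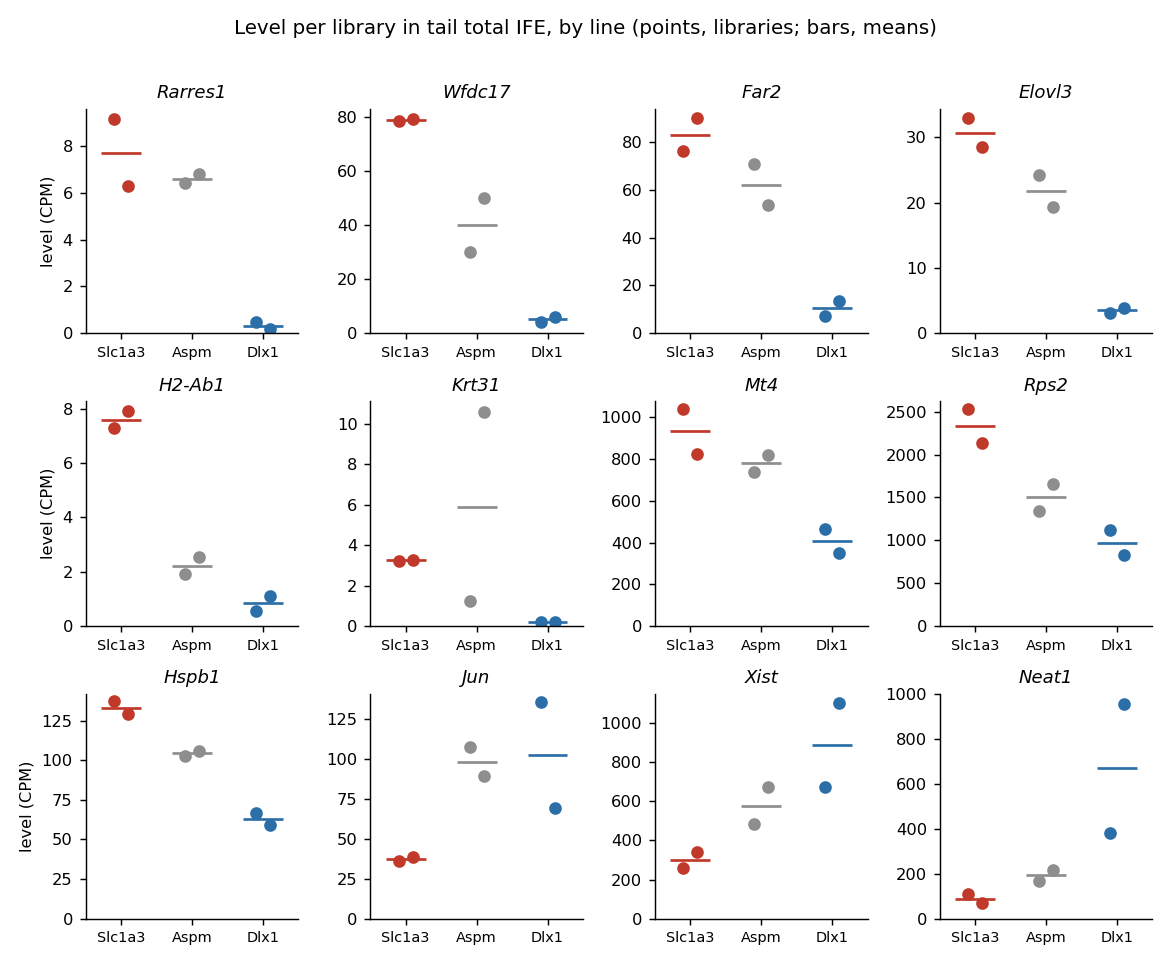
Level of 12 genes (CPM, linear axes from 0) in each tail total IFE library of the Slc1a3, Aspm and Dlx1 lines, with points for the 2 libraries of a line and a bar for their mean. Rarres1, Wfdc17, Far2 and Elovl3 were low in both Dlx1 libraries, while Neat1, Xist and Jun were low in both Slc1a3 libraries.

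Genes from a list for secreted defence, called defence genes here, were among those that rose. The list also holds genes for surface proteins, and a defence role of its members was not tested. Rarres1, a retinoid-responsive membrane protein gene, was at 9.16 and 6.29 CPM in the Slc1a3 line, against 0.457 and 0.184 CPM in the Dlx1 line. Both libraries of the Slc1a3 line lay far above both of the Dlx1 line, a 24.1-fold ratio of means with a log2 change of 4.59 ± 0.47 (SE, adjusted p = 1.85e-05). Wfdc17, which encodes a small secreted protein with a whey acidic protein domain, was at 78.4 and 79.2 CPM in the Slc1a3 line, against 4.26 and 6.04 CPM in the Dlx1 line. Its replicates were close in each line and the log2 change was 3.93 ± 0.43 (SE, adjusted p = 7.8e-05). Wfdc18, of the same family, had 7.09 and 7.59 CPM in the Slc1a3 line, against 0 and 0.43 CPM in the Dlx1 line (log2 change 5.02 ± 1.28 SE, adjusted p = 0.0481). Wfdc17 and Wfdc18 are neighbours on chromosome 11, with RefSeq starts 4.95 kb apart. Reads of such related neighbours can be hard to assign, and how shared reads were counted is not given in the sources used here. The Aspm line sat with or near the Slc1a3 line for Rarres1 (6.41 and 6.8 CPM) and between the lines for Wfdc17 (30 and 49.9 CPM).

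Of 25 tested genes in a list of 40 for secreted defence, 20 had a positive change, 5 rose and 0 fell, with a median log2 change of 0.58. The 5 include Rarres1 and Wfdc17, which were given as markers of this comparison. The list was also chosen with earlier results of these data known, so this count is a description and not a test. Besides Rarres1, Wfdc17 and Wfdc18, the 2 that rose were Ly6d and Lypd3, genes for surface proteins of the Ly6 family. Ly6d was at 2948 and 2517 CPM in the Slc1a3 line, against 1645 and 1309 CPM in the Dlx1 line (log2 change 0.89 ± 0.23 SE, adjusted p = 0.0481). Lypd3 was at 319 and 312 CPM in the Slc1a3 line, against 187 and 154 CPM in the Dlx1 line, with the same adjusted p. The beta-defensin Defb1 went the other way in its values, at 35.8 and 31.2 CPM against 59 and 40.2 CPM, with an adjusted p of 0.44. Rarres1 and Wfdc17 kept passing without any 1 library, while Ly6d, Lypd3 and Wfdc18 lost the call in each such fit.

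The sequence around the RefSeq starts (GRCm38.p6) of the defence genes, and of Far2 and Mgll described below, is shown because Rarres1, Wfdc17, Far2 and Mgll passed whichever library was left out, and Wfdc18 is the neighbour of Wfdc17. Each line runs from 100 bases before the start to 20 after it, 5′ to 3′ on the gene's strand, and capitals mark TATAAA on either strand.
Rarres1, chr3:67515504-67515623, minus strand: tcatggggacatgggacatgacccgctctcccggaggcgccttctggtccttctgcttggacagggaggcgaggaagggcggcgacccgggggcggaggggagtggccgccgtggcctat
Wfdc17, chr11:83703956-83704075, plus strand: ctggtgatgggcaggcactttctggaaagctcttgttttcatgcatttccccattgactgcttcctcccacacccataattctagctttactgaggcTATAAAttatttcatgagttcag
Wfdc18, chr11:83708904-83709023, plus strand: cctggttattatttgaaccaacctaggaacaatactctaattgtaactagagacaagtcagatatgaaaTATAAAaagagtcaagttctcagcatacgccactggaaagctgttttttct
Far2, chr6:148047316-148047435, plus strand: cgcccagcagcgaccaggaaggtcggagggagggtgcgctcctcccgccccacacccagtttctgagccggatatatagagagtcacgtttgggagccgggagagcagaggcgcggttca
Mgll, chr6:88724312-88724431, plus strand: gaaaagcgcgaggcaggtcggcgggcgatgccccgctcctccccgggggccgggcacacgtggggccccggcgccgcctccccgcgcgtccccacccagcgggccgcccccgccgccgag
TATAAA begins 31 bases before the RefSeq start of Wfdc18 and 3 bases before that of Wfdc17, whose GENCODE start lies 65 bases upstream. That of Far2 lies 157 bases upstream. Among tested genes with an entry in the RefSeq table, the same window held TATAAA in 14 of 130 genes that rose (10.8%), 0 of 122 that fell and 398 of 11555 in all (3.44%). A match of these letters describes the sequence and is not a measured site.

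Sebaceous lipid genes were higher in the Slc1a3 line for a subset of the list. Of 27 tested genes of a 30-gene sebocyte list, 19 had a positive change, 4 rose and 0 fell, and the median log2 change was 0.75, against -0.07 for all genes. Far2, which makes fatty alcohols for wax, was at 76.3 and 90 CPM in the Slc1a3 line, against 7.17 and 13.5 CPM in the Dlx1 line. That is an 8.03-fold ratio with no overlap (log2 change 3.003 ± 0.48 SE, adjusted p = 0.00456). Elovl3, an elongase of very long fatty acids, was at 32.9 and 28.5 CPM in the Slc1a3 line, against 3.13 and 3.9 CPM in the Dlx1 line (log2 change 3.12 ± 0.61 SE, adjusted p = 0.0188). Cidea, a lipid droplet protein, was at 14.1 and 13.4 CPM in the Slc1a3 line, against 1.41 and 1.78 CPM in the Dlx1 line (log2 change 3.10 ± 0.53 SE, adjusted p = 0.0137). Hsd3b6, a steroid dehydrogenase, was at 7.78 and 10.2 CPM in the Slc1a3 line, against 0.528 and 0.92 CPM in the Dlx1 line (adjusted p = 0.0481). In each of these genes both libraries of the Slc1a3 line stood above both of the Dlx1 line, as in every gene that rose.

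Of the 27 tested sebocyte genes, 8 had a negative change, the lowest at a log2 change of -2.24. Both Slc1a3 libraries lay below both Dlx1 libraries in 4 of the 27 and above them in 16. Some other sebaceous genes had the same order of values as those that rose, without passing. Awat1, a wax synthase, was at 6.33 and 6.73 CPM in the Slc1a3 line, against 0.703 and 0.491 CPM in the Dlx1 line (adjusted p = 0.0546), and the desaturase Scd1 was at 480 and 577 CPM, against 227 and 276 CPM (adjusted p = 0.0596). The general fatty acid synthase Fasn did not separate the lines, at 271 and 391.6 CPM in the Slc1a3 line and 321 and 318 CPM in the Dlx1 line, nor did the regulator Pparg, at 1.79 and 2.05 CPM and 1.79 and 2.24 CPM. In the Aspm line the 4 genes that rose were closer to the Slc1a3 line, with Far2 at 70.7 and 53.7 CPM and Hsd3b6 at 7.77 and 6.32 CPM. Only Far2 passed without Slc1a3 replicate 1 and without Dlx1 replicate 2. Fewer sebaceous cells in a sample and less RNA of these genes per cell cannot be told apart in bulk libraries, which holds for every cell type named here.

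Mgll, a monoglyceride lipase outside the rule for named genes and chosen after its values were seen, was at 149 and 163 CPM in the Slc1a3 line, against 60.8 and 54.3 CPM in the Dlx1 line. The difference was larger than the spread between replicates (log2 change 1.44 ± 0.17 SE, adjusted p = 7.8e-05). Cyp2f2, a cytochrome P450, was at 13.3 and 6.21 CPM in the Slc1a3 line, against 0.844 and 0.429 CPM in the Dlx1 line (log2 change 3.93 ± 0.97 SE, adjusted p = 0.0441). Rdh1, a retinol dehydrogenase, was at 9.71 and 9.05 CPM in the Slc1a3 line, against 0.879 and 1.1 CPM in the Dlx1 line (log2 change 3.23 ± 0.62 SE, adjusted p = 0.0164). The adjusted p of Cyp2f2 was 0.405 without Slc1a3 replicate 1 and 0.499 without Dlx1 replicate 2, and that of Rdh1 was 0.14 and 0.215.

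Few differentiation genes passed. Among 16 spinous layer genes 8 had a positive and 8 a negative change, the median log2 change was -0.01, and 2 rose while 0 fell. Keratins 1 and 10 themselves did not pass (adjusted p = 0.943 and 0.773). Krt10 was at 4503 and 5076 CPM in the Slc1a3 line and 4000 and 4530 CPM in the Dlx1 line, and Krt1 at 1661 and 1688 CPM and 1749 and 1752 CPM. The genes that rose were Mt4, a metallothionein of stratified epithelia, and Calm4, a calcium-binding protein of the suprabasal layers. Mt4 was at 1042 and 823 CPM in the Slc1a3 line, against 467 and 349 CPM in the Dlx1 line (log2 change 1.19 ± 0.31 SE, adjusted p = 0.0481). Calm4 was at 1157 and 1056 CPM in the Slc1a3 line, against 722 and 504 CPM in the Dlx1 line (log2 change 0.85 ± 0.22 SE, adjusted p = 0.0481). At an unadjusted p under 0.05, 5 of the 16 were higher and 0 lower. Without passing, Dmkn was at 760 and 697 CPM in the Slc1a3 line, against 442 and 408 CPM in the Dlx1 line (adjusted p = 0.0671). Krtdap was at 1434 and 1238 CPM, against 770 and 671 CPM (adjusted p = 0.0825). The desmosomal cadherin Dsg1a had values in the other direction without passing. So did Dsc3, a desmosomal cadherin that belongs to the basal layer list and not to the spinous one. Dsg1a was at 293 and 408 CPM in the Slc1a3 line and 339 and 591 CPM in the Dlx1 line, which overlap, and Dsc3 at 1201 and 1532 CPM and 1537 and 2069 CPM, which do not.

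Of 38 tested granular layer and cornified envelope genes, 29 had a positive change and the median log2 change was 1.06, but 1 rose and 0 fell. The gene that rose, Nccrp1, was close to its detection limit, at 0.826 and 0.905 CPM in the Slc1a3 line and at 0.0352 and 0 CPM in the Dlx1 line (adjusted p = 0.0481). Many genes of this list are scarce in these libraries. The summed level of the list did not follow the median. It overlapped between lines, at 1042 and 1375 CPM in the Slc1a3 line and 1341 and 1360 CPM in the Dlx1 line. Loricrin (Lor) was at 26.9 and 8.73 CPM in the Slc1a3 line and 4.33 and 7.39 CPM in the Dlx1 line, and filaggrin (Flg) at 0 and 0 CPM and 0.281 and 0.092 CPM. The kallikrein Klk7, a protease of desquamation, was at 14.4 and 21 CPM in the Slc1a3 line, against 5.49 and 5.77 CPM in the Dlx1 line (adjusted p = 0.0524). The abundant plakin gene Ppl overlapped between lines, at 249 and 492 CPM in the Slc1a3 line and 436 and 517 CPM in the Dlx1 line (adjusted p = 0.501). The median of this list was 0.48 without Slc1a3 replicate 1 and 1.78 without Dlx1 replicate 2, so it depended on which library was used.

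Among 19 tested genes of barrier lipid synthesis, 14 had a positive change, 1 rose and 0 fell, with a median log2 change of 0.28. Elovl4, which makes the ultra-long fatty acids of barrier ceramides, was at 88.7 and 107 CPM in the Slc1a3 line, against 17.8 and 30.8 CPM in the Dlx1 line. The lines did not overlap (log2 change 2.01 ± 0.35 SE, adjusted p = 0.00935), although the adjusted p was 0.0607 without Slc1a3 replicate 1 and 0.0614 without Dlx1 replicate 1. Cers3, the ceramide synthase that uses its products, was at 21.4 and 27.1 CPM in the Slc1a3 line and 14.3 and 17.2 CPM in the Dlx1 line (adjusted p = 0.0704). The lipoxygenase Aloxe3 overlapped between lines, at 4.75 and 7.71 CPM in the Slc1a3 line and 4.96 and 8.99 CPM in the Dlx1 line. The lipid transporter Abca12 had lower values in the Slc1a3 line, 4.96 and 11 CPM against 11.5 and 13.1 CPM (adjusted p = 0.467).

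Hard keratins of the scale had 12 of 13 tested genes positive, with a median log2 change of 1.15, 1 that rose and 0 that fell. Krt31 was at 3.24 and 3.27 CPM in the Slc1a3 line, against 0.176 and 0.215 CPM in the Dlx1 line (log2 change 4.01 ± 0.88 SE, adjusted p = 0.0272). In the Aspm line its 2 libraries were at 1.23 and 10.6 CPM, a wider spread than in either line compared. The most abundant hard keratin genes differed in value with a large error. Krt36 was at 1629 and 2381 CPM in the Slc1a3 line, against 823 and 748 CPM in the Dlx1 line (log2 change 1.35 ± 1.34 SE, adjusted p = 0.659), and Krt84 was at 1476 and 2594 CPM, against 997 and 1041 CPM (adjusted p = 0.785). No call in this list held without Slc1a3 replicate 1 or without Dlx1 replicate 2.

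**Figure D2:**
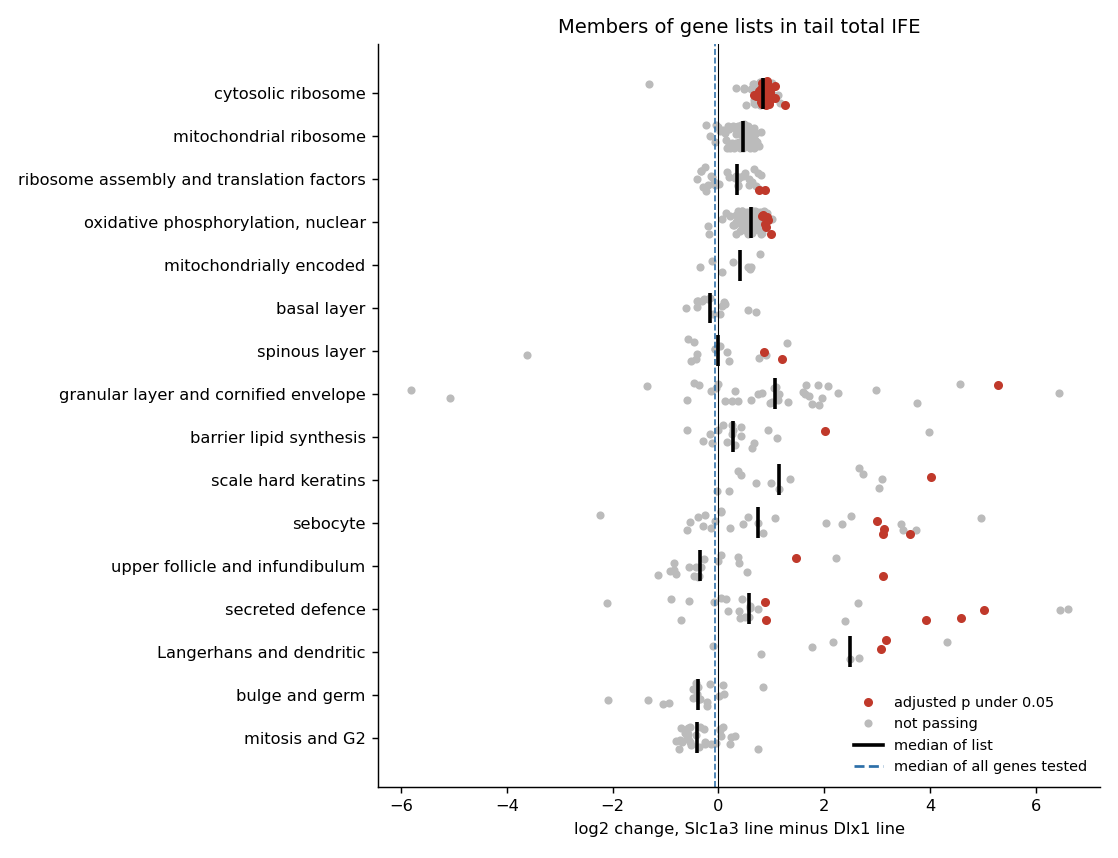
Log2 change (Slc1a3 line minus Dlx1 line) of each tested member of 16 gene lists, with red points for members at an adjusted p under 0.05, grey for the rest, black bars for list medians and a dashed line for the median of all genes (-0.07). Cytosolic ribosome members, apart from the nearly uncounted Rpl24 at -1.31, lie in a narrow band around a median of 0.83. Sebocyte, defence and granular members spread over several log2 units.

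Cytosolic ribosomal protein genes had small positive changes of similar size. Of 83 tested, 82 had a positive change, 34 rose and 0 fell, and the median log2 change was 0.83. With library totals 10 passed, and with the replicate block 64 did. Their summed level was 124800 and 100200 CPM in the Slc1a3 line, against 69690 and 55850 CPM in the Dlx1 line. In each library that is 11.9% and 9.42% of counts in the Slc1a3 line and 7.32% and 6.12% in the Dlx1 line. Every library had its own level, and the gap between Slc1a3 replicate 2 and Dlx1 replicate 1 was wider than the gap within either line. With 2 libraries against 2, an exact permutation test of such a sum cannot go below p = 0.333. The Aspm line lay between, at 75510 and 78740 CPM.

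Rps2, of the small subunit, was at 2534 and 2133 CPM in the Slc1a3 line, against 1122 and 824 CPM in the Dlx1 line, the highest log2 change of the list (1.262 ± 0.28 SE, adjusted p = 0.0272). Rplp1, an acidic protein of the large subunit's stalk, was at 3231 and 2585 CPM in the Slc1a3 line, against 1566 and 1203 CPM in the Dlx1 line (log2 change 1.07 ± 0.22 SE, adjusted p = 0.0225). Rack1, a scaffold on the small subunit, was at 3958 and 3280 CPM in the Slc1a3 line, against 2145 and 1678 CPM in the Dlx1 line (log2 change 0.92 ± 0.19 SE, adjusted p = 0.0231). In each of these the lower Slc1a3 library stood above the higher Dlx1 library, as in every gene that rose. The single member with a negative change, Rpl24, was nearly uncounted, at 0.62 and 0.826 CPM in the Slc1a3 line and 2.08 and 1.56 CPM in the Dlx1 line. Ribosomal protein genes have many near-identical pseudogene copies, so the counts of single members are uncertain where shared reads were split or dropped. Without Slc1a3 replicate 1 or without Dlx1 replicate 2, 0 of 83 passed, and without both the median log2 change was 0.46.

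Genes of the wider translation machinery followed in part. Of 32 assembly and translation factors, 21 had a positive change, 2 rose and 0 fell. These were Eif3k, a subunit of initiation factor eIF3, at 421 and 346 CPM in the Slc1a3 line against 234 and 182 CPM in the Dlx1 line (adjusted p = 0.0231), and Eef1g, of the elongation factor eEF1 complex, at 558 and 500 CPM against 340 and 286 CPM (adjusted p = 0.0313). Nucleolar ribosome assembly genes did not pass and their values went both ways. Nhp2 was at 180 and 171 CPM in the Slc1a3 line, against 121 and 85.2 CPM in the Dlx1 line (adjusted p = 0.061), with Ncl at 646 and 723 CPM in the Slc1a3 line and 786 and 944 CPM in the Dlx1 line, and Npm1 at 485 and 434 CPM and 500 and 557 CPM. Myc, a regulator of ribosome production, was at 112 and 113 CPM in the Slc1a3 line and 149 and 121 CPM in the Dlx1 line (adjusted p = 0.306). Among 76 tested mitochondrial ribosomal protein genes 71 had a positive change with a median of 0.46, and 0 passed by edgeR while 36 had an unadjusted p under 0.05, all higher.

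Many ribosomal protein transcripts begin with a run of pyrimidines, which is shown here because the members moved together. The RefSeq starts of the 5 passing members of lowest p with an entry follow, from 40 bases before the start to 20 after it, 5′ to 3′ on the gene's strand, with the longest run of C and T near the start in capitals.
Rack1, chr11:48800320-48800379, plus strand: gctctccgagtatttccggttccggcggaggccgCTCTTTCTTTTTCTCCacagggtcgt
Rps19, chr7:24884552-24884611, plus strand: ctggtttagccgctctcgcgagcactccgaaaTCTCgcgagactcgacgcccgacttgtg
Fau, chr19:6057907-6057966, plus strand: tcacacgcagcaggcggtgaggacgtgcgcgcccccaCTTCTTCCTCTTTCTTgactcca
Rplp0, chr5:115559427-115559486, plus strand: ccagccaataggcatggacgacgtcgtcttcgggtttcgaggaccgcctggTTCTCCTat
Rps2, chr17:24720023-24720082, plus strand: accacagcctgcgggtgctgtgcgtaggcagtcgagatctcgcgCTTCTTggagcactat
The run is 16 bases in Rack1 and Fau, 7 in Rplp0, 6 in Rps2 and 4 in Rps19. The RefSeq start lies downstream of the GENCODE start by 1947 bases in Rps2, 221 in Rps19, 103 in Fau and 28 in Rack1, so the runs of these genes depend on which start is used. A run of at least 7 bases between 10 before and 20 after the start was present in 15 of 28 passing members with an entry (53.6%), 15 of 34 members that did not pass (44.1%) and 2030 of 11555 tested genes (17.6%). It was present in 13 of 102 other genes that rose (12.7%) and in 21 of 122 that fell (17.2%).

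Nuclear genes of oxidative phosphorylation mostly had small positive changes, of which few passed. Of 78 tested, 76 had a positive change, 7 rose and 0 fell, with a median log2 change of 0.62 and a range of -0.20 to 1.02. With library totals 1 passed, and with the replicate block 30 did. The summed level was 14900 and 12290 CPM in the Slc1a3 line, against 10080 and 7911 CPM in the Dlx1 line, with a value of its own in each library. Unlike in the ribosomal list, the gap between Slc1a3 replicate 2 and Dlx1 replicate 1 was narrower than the gap between the Slc1a3 replicates. By complex the median was 0.64 for the 36 genes of complex I, 0.39 for the 4 of complex II, 0.65 for the 9 of complex III, 0.62 for the 13 of complex IV and 0.59 for the 16 of ATP synthase. Uqcrq, of complex III, was at 190 and 138 CPM in the Slc1a3 line, against 105 and 59.9 CPM in the Dlx1 line (log2 change 0.98 ± 0.26 SE, adjusted p = 0.0481). Atp5d, of ATP synthase, was at 248 and 196 CPM in the Slc1a3 line, against 126 and 107 CPM in the Dlx1 line (log2 change 0.93 ± 0.21 SE, adjusted p = 0.0272). Cox4i1, of complex IV, was at 875 and 668 CPM in the Slc1a3 line, against 478 and 351 CPM in the Dlx1 line (log2 change 0.90 ± 0.24 SE, adjusted p = 0.0481). Ndufa3, of complex I, was at 74 and 50.1 CPM in the Slc1a3 line, against 36.1 and 33.7 CPM in the Dlx1 line (adjusted p = 0.0347).

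The mitochondrially encoded subunits did not share this order as a sum, and single members went both ways. Both Slc1a3 libraries stood above both Dlx1 libraries in 3 tested members, mt-Nd2, mt-Nd5 and mt-Nd6, and below them in 1, mt-Nd1. For example, mt-Nd5 was at 974 and 964 CPM in the Slc1a3 line and 609 and 652 CPM in the Dlx1 line. In the same order, mt-Nd1 was at 1968 and 1719 CPM and 2416 and 2271 CPM. The list's summed level was 13490 and 11620 CPM in the Slc1a3 line and 11660 and 13740 CPM in the Dlx1 line, and mt-Co1 was at 6165 and 5417 CPM and 6085 and 6553 CPM. Of 8 such genes tested 6 had a positive change, with a median log2 change of 0.42, and 0 passed by edgeR, with 0 at an unadjusted p under 0.05. The remaining 5 of 13, mt-Co2 and mt-Co3 among them, had 0 counts in all 4 libraries. Without Slc1a3 replicate 1 or without Dlx1 replicate 2, 0 of 78 nuclear genes passed, and with both left out the nuclear median was 0.23.

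**Figure D3:**
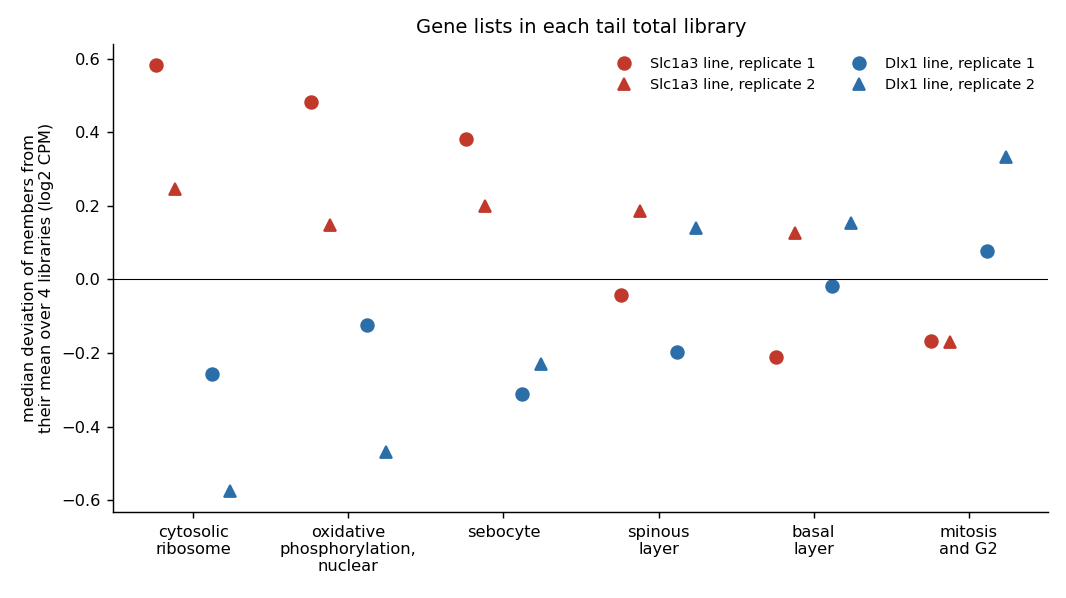
Median deviation of list members from their own mean over the 4 libraries (log2 CPM, pseudocount 0.5) in each tail total IFE library, for 6 lists. Ribosome and oxidative phosphorylation members give 4 separate levels from Slc1a3 replicate 1 to Dlx1 replicate 2, sebocyte members give a level per line, and spinous and basal members overlap between lines.

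Basal, follicular and cycling genes did not pass apart from 2 genes. Of 15 basal layer genes 6 had a positive change, the median log2 change was -0.16 and 0 passed by edgeR, with 2 higher and 1 lower at an unadjusted p under 0.05. The basal median was 0.07 without both outer libraries, where the median of all genes was -0.01. With the trend over exon length and GC removed it was 0.12, near the 0.115 of all genes, so the list had no stable direction. Krt5 was at 42530 and 42650 CPM in the Slc1a3 line and 31220 and 26860 CPM in the Dlx1 line (adjusted p = 0.1), while the hemidesmosome gene Col17a1 was at 4908 and 6321 CPM and 6218 and 7331 CPM. Of 18 bulge and germ genes 14 had a negative change with a median of -0.38, and the stem cell gene Lgr5 was at 1.31 and 3.19 CPM in the Slc1a3 line and 6.3 and 13 CPM in the Dlx1 line (adjusted p = 0.315). Of 30 genes of mitosis and G2, 22 had a negative change with a median of -0.40 (-0.08 with the trend over exon length and GC removed), and 0 passed by edgeR, with 1 at an unadjusted p under 0.05. Of 20 upper follicle genes 13 had a negative change, while Cidea, given above, and Cst6 rose. Cst6, a cystatin that inhibits cysteine proteases in the follicle and cornified layer, was at 201 and 171 CPM in the Slc1a3 line, against 93.1 and 42.2 CPM in the Dlx1 line (log2 change 1.46 ± 0.38 SE, adjusted p = 0.0481). The median of the upper follicle list was -0.35, so these 2 genes went against most of it.

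Markers of other cells that total IFE can hold were mostly near 0, and 2 genes of antigen presentation rose in the Slc1a3 line. Of 9 tested Langerhans and dendritic genes 8 had a positive change, 2 rose and 0 fell, with a median log2 change of 2.49. H2-Ab1, a chain of MHC class II, was at 7.3 and 7.91 CPM in the Slc1a3 line, against 0.563 and 1.1 CPM in the Dlx1 line (log2 change 3.17 ± 0.77 SE, adjusted p = 0.0396). Cd74, the invariant chain, was at 17.4 and 12.9 CPM in the Slc1a3 line, against 1.48 and 2.12 CPM in the Dlx1 line (log2 change 3.06 ± 0.68 SE, adjusted p = 0.0272). The defining marker Cd207 (langerin) was at 1.52 and 0.511 CPM in the Slc1a3 line and 0 and 0.337 CPM in the Dlx1 line (adjusted p = 0.315). The summed level of the list was 153 and 135 CPM in the Slc1a3 line, against 111 and 73.6 CPM in the Dlx1 line, where Mfge8 and Epcam, which keratinocytes also express, take the largest shares. Neither gene passed without Slc1a3 replicate 1 or without Dlx1 replicate 2.

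In the lists of the other cell types checked, epidermal T cells, fibroblasts, melanocytes, Merkel cells, and endothelial and blood cells, 0 members passed by edgeR, with 5 at an unadjusted p under 0.05. Epidermal T cell genes summed to 56.9 and 58.8 CPM in the Slc1a3 line and 35.8 and 15.7 CPM in the Dlx1 line, nearly all of it Thy1, with Trdc at 0 in all 4 libraries. Fibroblast genes summed to 957 and 831 CPM in the Slc1a3 line and 619 and 599 CPM in the Dlx1 line, most of it Sparc, with Col1a1 at 3.1 and 1.69 CPM and 2 and 2.7 CPM. Melanocyte genes summed to 25.8 and 22.6 CPM and 17.3 and 24.1 CPM, and endothelial and blood genes to 5.16 and 4.13 CPM and 6.79 and 7.58 CPM, in the Slc1a3 and the Dlx1 line. The T cell and fibroblast sums were higher in both Slc1a3 libraries, and the melanocyte sums overlapped. Their part in the results was not tested.

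Stress genes gave single passing members. Hspb1, a small heat shock protein of differentiating keratinocytes, was at 138 and 129 CPM in the Slc1a3 line, against 66.7 and 59 CPM in the Dlx1 line (log2 change 1.08 ± 0.18 SE, adjusted p = 0.00809). Dnajb1, a co-chaperone, also rose, at 212 and 234 CPM in the Slc1a3 line against 172 and 139 CPM in the Dlx1 line (adjusted p = 0.0481), while the inducible chaperone Hspa1b, whose counts are uncertain because of its near-identical copy Hspa1a, was at 213 and 216 CPM and 242 and 234 CPM. The 16 heat shock genes had a median log2 change of -0.16. Jun, an immediate early transcription factor, fell to 35.8 and 38.7 CPM in the Slc1a3 line, against 135 and 69.3 CPM in the Dlx1 line (log2 change -1.46 ± 0.33 SE, adjusted p = 0.0279). It was the single passing gene among 24 immediate early genes, whose median was -0.12, and Fos was at 14.4 and 11.9 CPM in the Slc1a3 line and 9.71 and 7.27 CPM in the Dlx1 line. The adjusted p of Hspb1 was 0.134 and that of Jun 0.321 without Slc1a3 replicate 1.

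Of the 164 genes that fell, 143 were protein-coding and 6 were long intergenic non-coding RNAs, against 13771 and 624 of all 17493 tested. Neat1, the RNA that builds paraspeckles, was at 109 and 68.6 CPM in the Slc1a3 line, against 384 and 956 CPM in the Dlx1 line. The ratio of means was 7.54-fold higher in the Dlx1 line (log2 change -2.92 ± 0.46 SE, adjusted p = 0.00502), with a wide gap between the Dlx1 replicates. Xist, the RNA that silences an X chromosome, was at 259 and 339 CPM in the Slc1a3 line, against 670 and 1102 CPM in the Dlx1 line (log2 change -1.57 ± 0.37 SE, adjusted p = 0.0372). Malat1 was at 129 and 178 CPM in the Slc1a3 line and 296 and 529 CPM in the Dlx1 line, and did not pass. Ddx17, an RNA helicase gene named after its values were seen, was at 143 and 192 CPM in the Slc1a3 line, against 362 and 458 CPM in the Dlx1 line (log2 change -1.29 ± 0.18 SE, adjusted p = 0.000899).

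Protein-coding genes with the largest passing decreases were mostly low in level. Hmcn1, a giant matrix protein gene, was at 1.58 and 3.93 CPM in the Slc1a3 line, against 10.9 and 11.1 CPM in the Dlx1 line (log2 change -1.96 ± 0.49 SE, adjusted p = 0.0441). Il22ra2, a soluble receptor that binds interleukin 22, was at 2.48 and 1.18 CPM in the Slc1a3 line, against 4.85 and 5.89 CPM in the Dlx1 line (log2 change -1.63 ± 0.37 SE, adjusted p = 0.031). Steap2, a metalloreductase, was at 5.03 and 4.56 CPM in the Slc1a3 line, against 13.6 and 15.3 CPM in the Dlx1 line (log2 change -1.59 ± 0.32 SE, adjusted p = 0.0225). The clock gene Per3 fell as well, at 45.7 and 43.5 CPM in the Slc1a3 line against 74.1 and 116 CPM in the Dlx1 line (adjusted p = 0.0272). Each of these had both Slc1a3 libraries under both Dlx1 libraries, as did every gene that fell. Of 164 genes that fell, 21 were not protein-coding, against 2 of 171 that rose and 3722 of all 17493 tested. Both shares were smaller than that of all genes tested. Without Slc1a3 replicate 1, 0 genes passed as lower, and without Dlx1 replicate 2 there were 2.

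The direction of change varied with exon length. The median exon length was 2142 bases in the genes that rose, 6362 in those that fell and 3645 in all tested, and the median GC content was 53.1%, 47.3% and 49.6%. Over 10 bins of equal gene number the median log2 change went from 0.30 in genes of up to 930 bases to -0.35 in those of 9089 bases or more. Spearman's rho between exon length and log2 change was -0.24 across 17493 genes and -0.23 without the ribosomal protein genes, as a description across genes of the same 4 libraries. Ribosomal protein genes have a median exon length of 1770 bases, nuclear oxidative phosphorylation genes 1696, sebocyte genes 4489 and mitosis genes 5056.

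When the trend over exon length and GC was removed from each library, an alternative added after the data were seen, 118 genes were higher and 30 lower, and 101 of the 335 genes above were among them. The median of the ribosomal list was then 0.87 with 19 passing. That of nuclear oxidative phosphorylation was 0.62 with 2 passing, and that of the sebocyte list 0.94 with 4 passing. These were not all the genes that rose before. The 2 were other genes of complex I, while the 7 nuclear genes that rose before had adjusted p values from 0.065 (Atp5d) to 0.113 (Cox6b1). Among sebocyte genes Hsd3b6 no longer passed (adjusted p = 0.0546). The median of all genes tested also moved, from -0.07 to 0.115, and these list medians are to be read against it. Rarres1, Wfdc17, Far2 and Elovl4 still passed, and Neat1 did at a log2 change of -2.34, whereas Xist (adjusted p = 0.0658), Jun (0.0639) and Mt4 (0.0601) did not. The part of RNA quality in this trend was not tested.

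**Figure D4:**
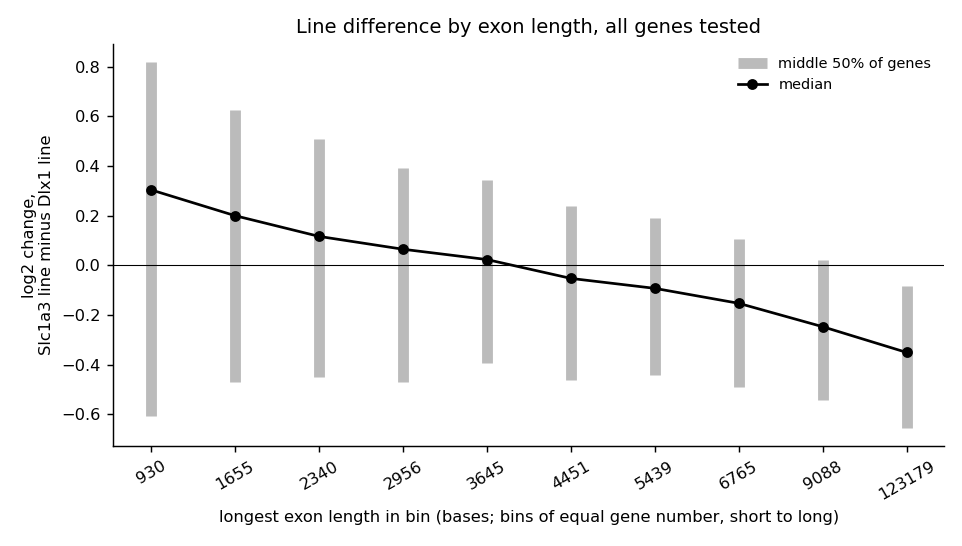
Log2 change (Slc1a3 line minus Dlx1 line) of the 17493 tested genes in 10 bins of exon length, with points for bin medians and grey bars for the middle 50% of genes. The medians fall steadily from 0.30 in the shortest bin to -0.35 in the longest, and the bars of neighbouring bins overlap widely.

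The same line difference was read in sorted cells, Slc1a3+ against Dlx1+, which share no library with the totals but may come from the same skins. There 404 genes (2.31%) were higher and 553 (3.16%) lower in Slc1a3+ cells. Of the 171 genes that rose in the total, 171 were positive and 139 passed in the sorted cells, and of the 164 that fell, 162 were negative and 105 passed. Rarres1 was at 8.61 and 4.09 CPM in Slc1a3+ cells, against 0.206 and 0.487 CPM in Dlx1+ cells. Far2 was at 76.1 and 104 CPM, against 9.67 and 15.1 CPM, levels near those of the totals. The ribosomal list had a median log2 change of 0.89 with 63 of 83 passing, and nuclear oxidative phosphorylation 0.74 with 34 of 78 passing. Sebocyte genes had a median of 0.88 with 6 of 27 passing. For these genes a difference between labelled lineages and a difference between lines cannot be told apart in the sorted cells.

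The line difference in total IFE differed from that in sorted cells for 4 of 17493 genes (0.0229%), with 362 at an unadjusted p under 0.05. Susd2, a membrane protein gene, was at 43 and 39.9 CPM in Slc1a3 line totals and 52.5 and 61.4 CPM in Dlx1 line totals, but at 3.84 and 3.03 CPM in Slc1a3+ cells, against 40.3 and 41.8 CPM in Dlx1+ cells. Il20ra, a receptor of interleukin 20, was at 8.95 and 10.5 CPM in the totals of the Slc1a3 line and 9.18 and 12.1 CPM in those of the Dlx1 line, but at 0.873 and 1.01 CPM in Slc1a3+ cells, against 7.3 and 10.2 CPM in Dlx1+ cells. Krt80 and Col23a1 gave the same pattern. All 4 were similar between lines in total IFE and low in sorted Slc1a3+ cells.

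**Figure D5:**
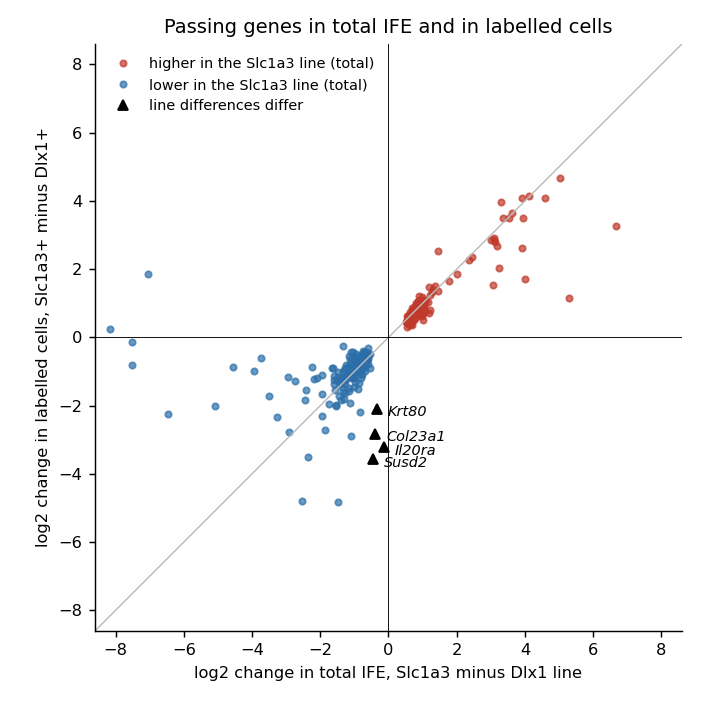
Log2 change between lines in total IFE (horizontal) and in labelled cells (vertical, Slc1a3+ minus Dlx1+) for the 171 genes that rose and the 164 that fell in total IFE, with triangles for the 4 genes whose line differences differed. Most points lie along the grey line of equality, and Susd2, Il20ra, Krt80 and Col23a1 lie below it near 0 on the horizontal axis.

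The genes that name the lines did not pass in total IFE. Slc1a3, a glutamate transporter, was at 8.47 and 7.55 CPM in the Slc1a3 line and 9.43 and 11.6 CPM in the Dlx1 line (adjusted p = 0.466). Dlx1, a homeobox gene, was at 8.12 and 8.93 CPM and 7.28 and 8.31 CPM (adjusted p = 0.97). Over all 17493 genes tested, 171 (0.978%) rose and 164 (0.938%) fell. Within 10 Mb of Slc1a3, 1 gene rose and 3 fell of 59 tested. Within 10 Mb of Dlx1, 0 rose and 1 fell of 108, and around the Rosa locus 3 rose and 0 fell of 137. The 3 that fell near Slc1a3 on chromosome 15 were Rai14, Cplane1 and Ptger4, with log2 changes of -0.77, -1.30 and -0.85 (adjusted p = 0.0446, 0.0357 and 0.0431). By chromosome, 15 held the highest share of passing genes, 22 of 706 tested (3.12%), followed by 19 with 2.81%, against 335 of 17493 over all genes. Whether place in the genome plays a part was not tested.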

How the data were processed

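The values used are whole-number counts per gene as deposited by the authors, 1 table per library, for 55536 GENCODE identifiers that all matched GENCODE M21 (GRCm38). Per the submitters' processing notes, Trim Galore 0.6.0, cutadapt, FastQC, STAR 2.7.0e and DESeq2 1.26.0 were used with GRCm38, also named mm10; the counting program, annotation and strand setting are not given in the sources used here. Per the labels' protocols, RNA was extracted with TRIzol, selected by poly(A) and made into libraries from low input with a non-directional kit, so overlapping and antisense genes cannot be told apart.

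All 28 libraries in 12 groups entered 1 model of group means in edgeR 4.0.16 (R 4.3.3), with TMM scaling, filterByExpr at a minimum count of 10, robust quasi-likelihood dispersion, and with 16 degrees of freedom left for the residual (common biological variation 0.28). Of 33440 genes with a count, 17493 were tested. The contrasts were the Slc1a3 line minus the Dlx1 line in tail total IFE, the same in labelled cells, and the first minus the second. Replicates of a line differed by more than counting noise (chi-square per degree of freedom 38.6 and 38.9), so no library was counted as a repeat deposit of another. This does not show that they came from separate mice. Counts without molecular identifiers limit precision by counting error at least, and 3 counts correspond to 0.206 and 0.118 CPM in the Slc1a3 line and 0.105 and 0.0919 CPM in the Dlx1 line.

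Genes are named by rule: the 12 largest changes each way among genes that passed, did not overlap between lines, reached 5 CPM and had no predicted-gene name; up to 4 members of lowest p per list; Rarres1, Wfdc17 and the line genes; and passing genes within 10 Mb of Slc1a3, Dlx1 or the Rosa locus. Not every gene so chosen is printed, and other list members are quoted for their role, chosen after their values were seen. The members, the 40 lists and the rule were chosen with earlier results of these data known. Starts are from RefSeq (GRCm38.p6), in which 11555 of the tested gene symbols had an entry, and exon lengths from GENCODE. The model was tested on simulated data. Alternatives used limma 3.58.1 and DESeq2 1.42.0; tables and figures used Python 3.11.15 and matplotlib 3.10.9.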

Additional observations from a re-analysis of the deposited data

Results flagged for a closer look

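The difference between lines was itself different in total IFE and in sorted cells for 4 genes, by the test of that difference in edgeR. As log2 values (line difference in total minus line difference in labelled cells) these were 3.12 for Susd2 (adjusted p = 9.95e-07), 3.10 for Il20ra (adjusted p = 0.000289), 1.76 for Krt80 (adjusted p = 0.00139) and 2.44 for Col23a1 (adjusted p = 0.0234). Krt80, a type II keratin, was at 164 and 177 CPM in Slc1a3 line totals and 196 and 232 CPM in Dlx1 line totals, but at 35.2 and 43.3 CPM in Slc1a3+ cells, against 161 and 174 CPM in Dlx1+ cells. Col23a1, a transmembrane collagen, was at 11.1 and 14.4 CPM in Slc1a3 line totals and 18.2 and 15.6 CPM in Dlx1 line totals, but at 2.15 and 2.43 CPM in Slc1a3+ cells, against 15.5 and 17.1 CPM in Dlx1+ cells. No test was made for single libraries that stand apart, since no group compared has 4 or more.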

How the results depend on the processing

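None of the 56 named genes that passed changed sign under the 17 other settings. In total IFE 335 genes passed (171 higher, 164 lower). The counts were 599 with library totals (68 and 531), 785 with no low-count filter (348 and 437), 1131 by DESeq2 (604 and 527), 576 by limma-voom (388 and 188), 720 by limma-voom with the skin correlation estimated (486 and 234), 1269 with only the 12 tail libraries (750 and 519) and 1039 without a back library of few genes (585 and 454). Removing the length and GC trend gave 148 (118 and 30). With only the 4 libraries compared 383 passed, of which 158 were among the 335, and 40 of the 56 named genes kept the call. Leaving out each library gave 5 to 249 genes, 5 to 117 higher and 0 to 132 lower, and leaving out Slc1a3 replicate 1 and Dlx1 replicate 2 together gave 0, 0 and 0. The replicate block gave 932 (505 and 427) with all 335 among them. Same-numbered libraries of the lines deviated together at r = 0.296 over 10376 genes, but with 2 pairs and no label of a shared batch the numbers are not taken as a pairing. Genes whose line difference differed between total and sorted cells numbered 4, against 39 with no filter, 17 by DESeq2, 2 by limma-voom, 8 with the skin correlation, 9 with the tail libraries and 8 with the replicate block. List medians moved beyond the spread within lines to 0.462 for ribosome, 0.234 for oxidative phosphorylation, 0.373 for spinous and 1.51 for granular genes without both outer libraries. Leaving out 1 library gave medians of 0.477 to 1.78 for granular, 0.508 to 0.853 for sebocyte and -0.19 to 0.263 for spinous genes. The granular median was 1.36 with the replicate block. The sebocyte median was 0.566 with library totals, 0.589 with only the 4 libraries and 0.942 without the length and GC trend. The median of all genes was -0.254 with library totals and 0.115 without that trend. Of 56 named genes that passed, 3 still passed without Slc1a3 replicate 1 and 5 without Dlx1 replicate 2. The shallowest library, Slc1a3 replicate 1, sets the limit for scarce genes. Where no cause is given, the cause was not tested.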
